A study of Drosophila melanogaster with 4 samples.

Results

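Aminoacyl-tRNA synthetases are the enzymes that join each amino acid to its tRNA, the step that sets which amino acid a codon is read as. Animal cells run this step in the cytosol and again inside mitochondria, mostly with separate nuclear genes for each compartment. The enzymes fall into class I and class II by the fold of their catalytic domain. In human cells several cytosolic synthetases sit together in a multi-synthetase complex held by AIMP scaffold proteins.

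The genes described here are those of Drosophila melanogaster whose symbol is 1 or 2 amino acid abbreviations followed by RS, with -m for the mitochondrial form. The reference table holds 33 such symbols, and 29 of them were found by gene ID among the 12073 gene IDs of the data. These were 16 cytosolic and 13 mitochondrial forms. HisRS, LeuRS, PheRS-m and SerRS-m were not analysed here, and the 2 subunits of cytosolic PheRS, whose symbols fall outside the rule, are given separately. All 29 genes had at least 1 RPKM in each library, so none was lost to the minimum on low values.

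RNA of whole adult females aged 1 to 3 days was sequenced after poly-A selection in 4 groups of 1 library each: kdm5 mutant flies on paraquat, kdm5 mutant control flies, wild type flies on paraquat and wild type control flies. The mutants were w1118 flies with the kdm5 allele pair K6801/10424, and the wild type was w1118. Kdm5 is a histone demethylase, and paraquat is a herbicide that generates superoxide inside cells. Paraquat flies fed for 6 hours on 20 mM paraquat in 5% sucrose, and control flies on 5% sucrose alone. RNA was extracted from groups of 5 flies, so a library is a pool of animals and of all their tissues.

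The libraries held 27.9 M to 29.1 M uniquely mapped reads (M, mega), and the 29 synthetase genes took 52269 to 74412 of them. Kdm5 was at 2.03 RPKM in kdm5 mutant paraquat flies and 2.06 RPKM in kdm5 mutant control flies, against 22.5 RPKM in wild type paraquat flies and 43.4 RPKM in wild type control flies. RPKM is reads scaled by the deposited gene length and by the library total. The yolk protein gene Yp1 was between 1774 and 4296 RPKM in all libraries, and none of the 5 male accessory gland and testis genes present in the data reached 1 RPKM, which matches the label of females. Muscle genes set the wild type control apart from the other 3 libraries: 9 of them summed to 5114, 5619 and 7219 RPKM in kdm5 mutant paraquat, kdm5 mutant control and wild type paraquat flies, against 2266 RPKM in wild type control flies.

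With 1 library per group there is no replicate check and no p-value. Differences are of log2(RPKM + 1), which understates the change of genes near 1 RPKM. A gene counts as past the size rule at a difference of 1.5-fold (0.585 on that scale) with at least 1 RPKM in a library compared. A fold is the ratio of RPKM between a pair of libraries, and the exact Clopper-Pearson 95% interval printed beside it covers counting error only. In whole flies, fewer cells of a type and less RNA per cell cannot be told apart.

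Cytosolic synthetase transcripts were more abundant than mitochondrial ones. To compare genes, reads were divided by the summed exon length instead of the deposited length, which for 26 of the 29 genes lay within 5% of the gene span with introns. On this exon RPKM scale the median over the 4 libraries ran from 20.4 for CysRS to 74.3 for AspRS among the 16 cytosolic forms, with a median of 45.1. AspRS led on the exon scale only. On the deposited scale it was at 38.8, below the cytosolic median of 41.5. Its deposited length is 4337 bases against 2266 of exon, and part of its reads may belong to overlapping genes. The 13 mitochondrial forms ran from 2.46 for MetRS-m to 26.6 for AspRS-m, with a median of 6.42. The ranges overlapped only through AspRS-m, the enzyme that loads aspartate in mitochondria.

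Within an amino acid, the cytosolic gene exceeded its mitochondrial counterpart in every library for all 12 amino acids with both genes measured. The median ratio of exon RPKM was 6.76 in kdm5 mutant paraquat flies, 7.22 in kdm5 mutant control flies, 7.10 in wild type paraquat flies and 5.90 in wild type control flies. The ratio was highest for glutamate, where GluProRS, a fused enzyme that charges both glutamate and proline tRNAs, stood over GluRS-m by 16.1, 15.03, 15.4 and 12.0 in the same order. Aspartate had the lowest ratio of the wild type control, with AspRS over AspRS-m at 3.51, 2.97, 3.16 and 1.83. Part of the AspRS reads in this ratio may belong to overlapping genes. The other ratios that were lowest of a library belonged to cysteine (2.44 in kdm5 mutant paraquat flies) and tryptophan (2.38 in kdm5 mutant control flies and 2.52 in wild type paraquat flies). Across libraries the ratio lay between 4.77 and 5.44 for alanine, 4.16 and 5.23 for tyrosine and 6.39 and 7.24 for arginine. It lay between 4.93 and 8.27 for valine, 6.70 and 9.11 for isoleucine, 6.73 and 9.77 for proline, 8.17 and 10.4 for asparagine and 7.20 and 12.2 for methionine.

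On the deposited scale LysRS, which charges lysine tRNAs, had the highest median of the 4 libraries among the cytosolic forms, at 52.6, 55.4 and 42.4 RPKM in kdm5 mutant paraquat, kdm5 mutant control and wild type paraquat flies, against 69.8 RPKM in wild type control flies. CysRS, which charges cysteine tRNAs, had the lowest, at 17.0, 19.2 and 15.1 RPKM in those 3 groups, against 25.9 RPKM in wild type control flies. MetRS-m, the mitochondrial methionine enzyme, was the lowest of the 29 genes in every library on this scale, at 1.06, 1.12 and 1.35 RPKM, against 2.18 RPKM in wild type control flies. All 3 genes were highest in the wild type control library. MetRS-m rests on 266 to 524 reads over a deposited length of 8609 bases, of which 35.9% to 38.0% was covered. Its exon length is 4314 bases. By exon RPKM in wild type paraquat flies, GluRS-m (2.401) and ValRS-m (2.689) were below MetRS-m (2.694).

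The genes are spread over the genome in the BDGP6 annotation, with 10 on 3L, 7 on 2R, 5 each on 2L and 3R and 2 on X. The data files carry no coordinates, and the submitters' notes name the older build dm3. GluRS-m (chromosome 3L, 16415292 to 16417177) and TyrRS (chromosome 3L, 16417349 to 16419302) follow each other on the minus strand. Of the 29 genes, 15 overlap another annotated gene, in most cases on the opposite strand, and whether reads were counted by strand is not given in the sources used here. Part of the reads of those 15 may belong to the neighbour.

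**Figure D1:**
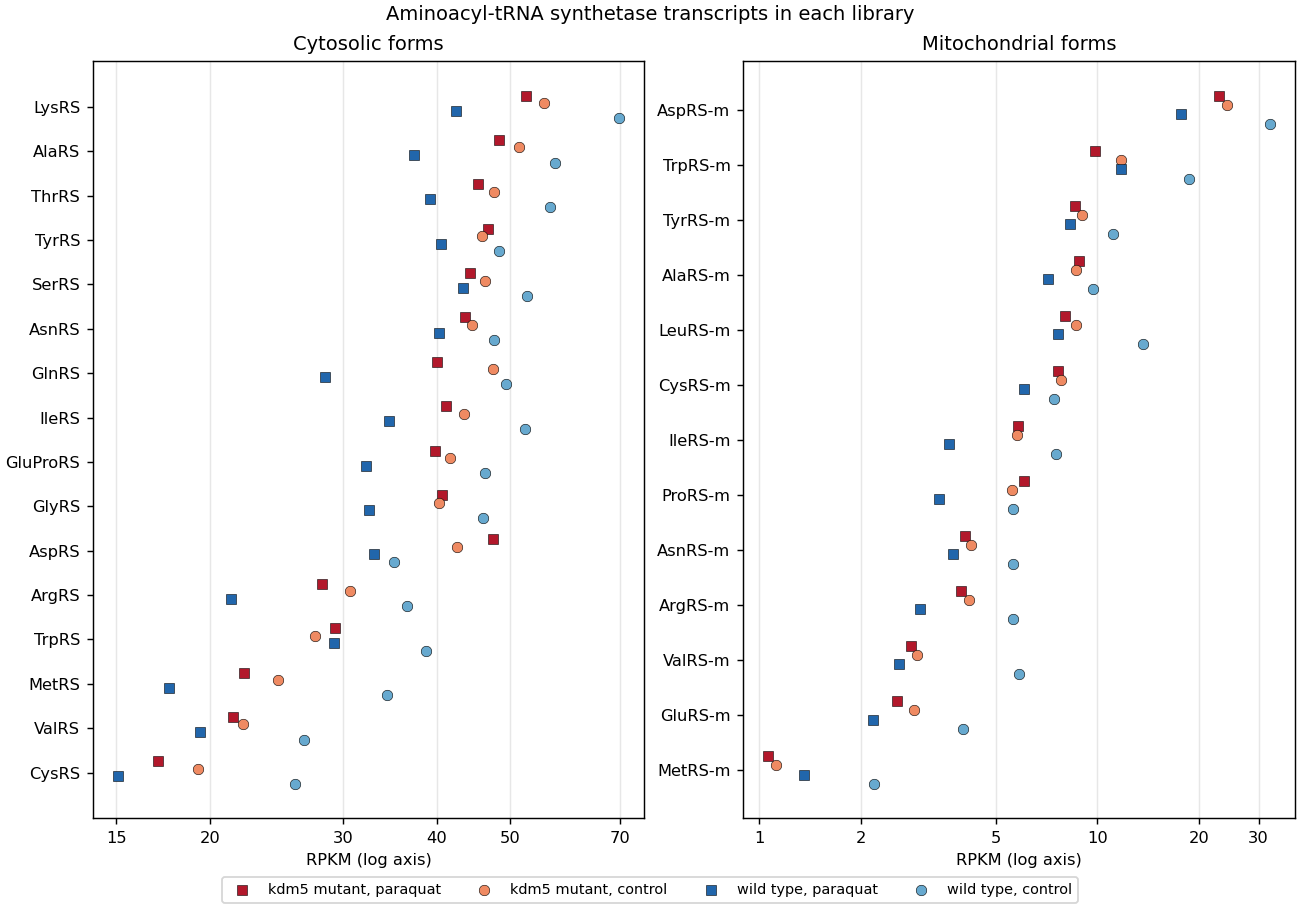
RPKM (log axis) of each synthetase gene in the 4 libraries, cytosolic forms on the left and mitochondrial forms on the right, 1 point per library, ordered by the median of the libraries. The wild type control point lies furthest right for 26 of 29 genes and the wild type paraquat point furthest left for 26 of 29, with AspRS, CysRS-m and ProRS-m as the genes not highest in the wild type control.

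The order of the libraries was nearly the same from gene to gene. RPKM was highest in the wild type control for 26 of 29 genes, and 52.5% of the 8611 genes with at least 1 RPKM were highest there. RPKM was lowest in wild type paraquat flies for 26 of 29, against 43.3% of all genes. Both held for 23 of the 29 genes and for 34.1% of all genes. The kdm5 mutant libraries therefore mostly lay between the wild type libraries. Summed over the family, RPM (reads scaled to the library total) was 2192 in kdm5 mutant paraquat flies and 2276 in kdm5 mutant control flies, and 1808 in wild type paraquat flies and 2663 in wild type control flies. The comparisons below share libraries, so their values are not independent of each other.

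Paraquat was set against control in wild type flies to ask how synthetase transcripts respond to oxidative stress in flies with intact Kdm5. All 29 genes were lower on paraquat (24 to 28 of 29 under the median-ratio and upper-quartile scalings below), with a median difference of -0.59, quartiles of -0.74 and -0.39 and a range from -0.94 for ValRS-m to -0.09 for AspRS. The share of all genes that were lower was 63.2%, or 72.4% among genes with at least 5 RPKM. Under the median-ratio and upper-quartile scalings it was 49.6% to 56.7% of all genes. The median of all genes was -0.29, or -0.45 among genes with at least 5 RPKM. Past the 1.5-fold rule 15 of 29 were lower and 0 higher, where 32.4% of 8429 genes were lower and 15.4% higher. Among genes of at least 5 RPKM 39.4% were lower. None passed a 2-fold rule on the log2(RPKM + 1) scale, against 10.4% of all genes lower and 5.21% higher. As ratios of RPKM, without the pseudocount, ValRS-m was 2.27-fold and IleRS-m 2.06-fold lower. Every one of the 29 counting intervals lay below 1, which 58.5% of all genes also showed.

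How far these differences lie from 0 depends on how the libraries are scaled. Median-ratio scaling moved the median of all genes to -0.13 and that of the synthetase genes to -0.41, with 28 of 29 still below 0 and AspRS above it. Scaling on genes of at least 1 RPKM, an alternative chosen after the data were seen, put the median of all genes at 0.01 and that of the synthetase genes at -0.27, with 24 of 29 below 0. With upper-quartile scaling 25 of 29 were below 0. The 15 genes lower past 1.5-fold became 7 with median-ratio scaling, 3 with the same on genes of at least 1 RPKM, 3 with upper-quartile scaling and 6 with a pseudocount of 5. The shares of all genes past 1.5-fold given above are for the deposited values, and those under these settings are not given here. Rescaling moves all genes by nearly the same amount, so it can hardly change which genes lie below the median of all genes. That count was 24 of 29 with no rescaling and under each of these scalings. Among genes of at least 5 RPKM, without rescaling, 18 of 27 lay below the median.

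Among the cytosolic forms, the median difference was -0.51 and 7 of 16 passed 1.5-fold. Lower past it were 32.4% of all genes and 39.4% of those with at least 5 RPKM. MetRS, the methionine enzyme that also charges the initiator tRNA (chromosome 2R, 18846858 to 18850599, minus strand), was at 22.2 RPKM in kdm5 mutant paraquat flies, 24.6 in kdm5 mutant control flies, 17.6 in wild type paraquat flies and 34.3 in wild type control flies. Its level in wild type was 1.94-fold lower on paraquat (1.84 to 2.06), the largest cytosolic difference at -0.92. GlnRS, the glutamine enzyme, was at 39.96, 47.5, 28.4 and 49.4 RPKM in the same order, and was 1.74-fold lower (1.64 to 1.84) on paraquat in wild type. CysRS was 1.72-fold lower (1.60 to 1.85) and LysRS 1.65-fold lower (1.57 to 1.72).

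The smallest differences were also mostly cytosolic. AspRS (chromosome 2R, 12877004 to 12883168, plus strand) had 47.5 RPKM in kdm5 mutant paraquat flies and 42.5 in kdm5 mutant control flies, and 33.0 in wild type paraquat flies and 35.1 in wild type control flies. It was 1.06-fold lower (1.02 to 1.11) on paraquat in wild type, and that direction turned to 0.09 with median-ratio scaling. AspRS and CysRS-m were the members with both kdm5 mutant libraries above both wild type libraries by RPKM. AspRS overlaps Nmda1 on the opposite strand and 2 antisense RNA genes, so part of its reads may be theirs. AsnRS, the asparagine enzyme, was at 43.5, 44.5, 40.3 and 47.7 RPKM in kdm5 mutant paraquat, kdm5 mutant control, wild type paraquat and wild type control flies. TyrRS, the tyrosine enzyme, was at 46.8, 45.9, 40.5 and 48.3 RPKM, and SerRS, the serine enzyme, at 44.2, 46.3, 43.3 and 52.6 RPKM. On paraquat in wild type the differences of these 3 were -0.24, -0.25 and -0.28.

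Among the mitochondrial forms, the median difference in wild type was -0.63 and 8 of 13 passed 1.5-fold, where 32.4% of all genes were lower past it. ValRS-m, the mitochondrial valine enzyme (chromosome 3L, 8961274 to 8964769, minus strand), was at 2.81, 2.92, 2.58 and 5.87 RPKM in kdm5 mutant paraquat, kdm5 mutant control, wild type paraquat and wild type control flies. It stood apart in the wild type control alone, and was 2.27-fold lower (1.96 to 2.65) on paraquat in wild type. IleRS-m, the mitochondrial isoleucine enzyme, was at 5.82, 5.80, 3.65 and 7.53 RPKM in the same order and 2.06-fold lower (1.81 to 2.36). AspRS-m was at 22.8, 24.2, 17.7 and 32.3 RPKM and 1.83-fold lower (1.74 to 1.92). These last 2 genes were lowest in wild type paraquat flies, highest in wild type control flies, and nearly level in the kdm5 mutant libraries. CysRS-m, the mitochondrial cysteine enzyme, had the smallest difference of the mitochondrial forms, -0.26, with 7.65, 7.79, 6.07 and 7.43 RPKM.

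Summed over genes, the mitochondrial forms were 1.69-fold lower (1.65 to 1.74) on paraquat in wild type, and the cytosolic forms 1.44-fold lower (1.42 to 1.45). The 17 class I enzymes had a median of -0.66 with 11 past 1.5-fold, and the 11 class II enzymes a median of -0.49 with 4 past it. GluProRS, which carries a domain of each class, was counted in neither. The 7 measured genes whose human counterparts belong to the multi-synthetase complex had a median of -0.71 with 5 past 1.5-fold, and the other 9 cytosolic genes a median of -0.44 with 2 past it. These subgroups overlap one another and were not tested against each other. Of all genes 32.4% were lower past 1.5-fold, or 39.4% of those with at least 5 RPKM.

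Tissue markers differed between the same libraries. In wild type paraquat against control flies 9 of 9 muscle genes were higher past 1.5-fold, with the summed levels given above. Of the eggshell genes, made by follicle cells, 6 of 9 were lower, and the list summed to 2047 RPKM in kdm5 mutant paraquat, 3708 in kdm5 mutant control, 2730 in wild type paraquat and 7491 in wild type control flies. Of the germline genes 3 of 7 were lower, with sums of 414, 374, 319 and 484 RPKM in the same order. Most of each sum was osk, at 325.5, 284.8, 243.8 and 348.6 RPKM, which did not pass the rule. The lower genes bam, bcd and png stood apart in the wild type control, with png at 12.4, 13.95, 12.9 and 38.6 RPKM. Another germline gene, grk, was at 0.24. Of the fat body genes of females 4 of 4 were lower. Past 1.5-fold 32.4% of all genes were lower and 15.4% higher. The part of these tissue markers in the synthetase differences was not tested.

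**Figure D2:**
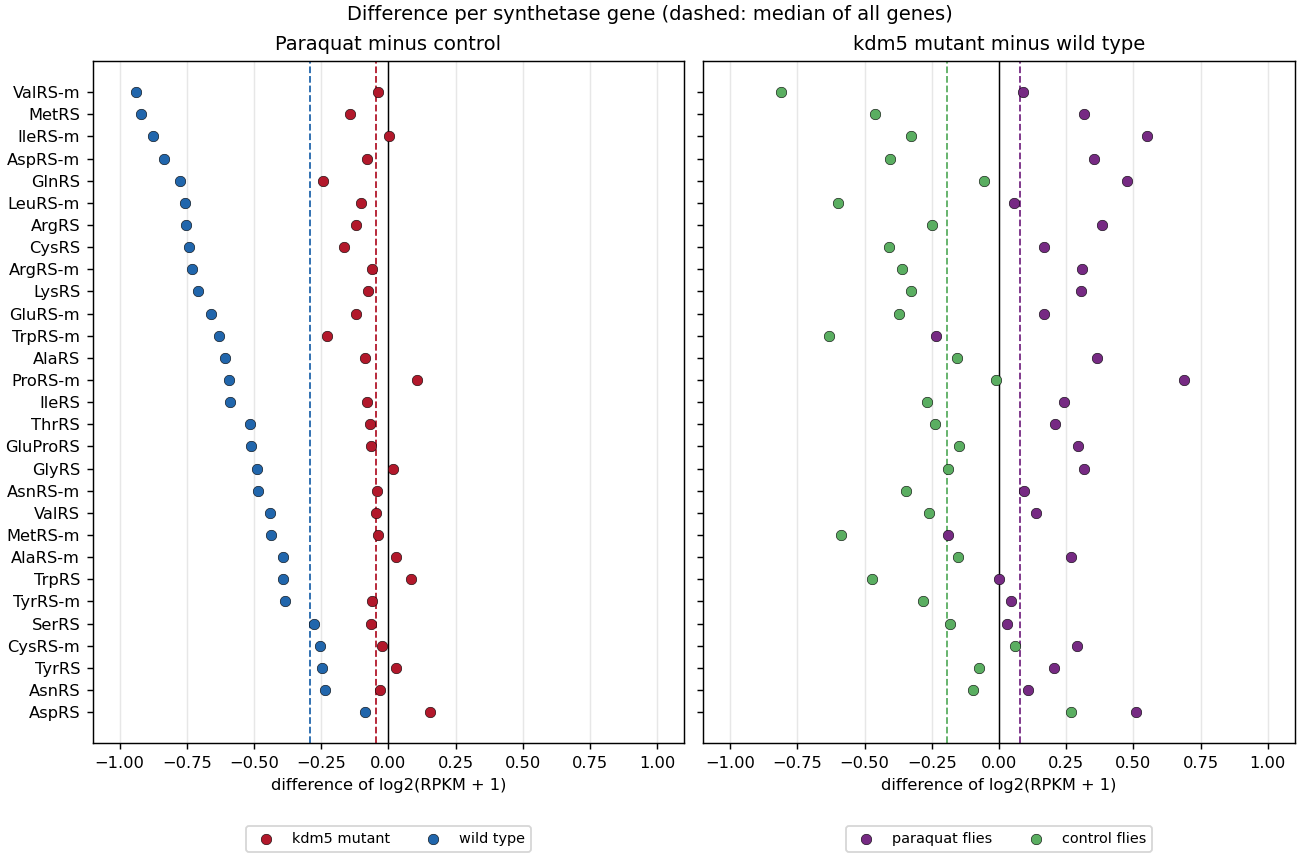
Difference of log2(RPKM + 1) for each synthetase gene, 1 library per group, ordered by the wild type paraquat difference. On the left, paraquat minus control lies below 0 for all 29 genes in wild type (24 to 28 under median-ratio and upper-quartile scalings) and between -0.24 and 0.16 in the kdm5 mutant; on the right, kdm5 mutant minus wild type is below 0 for 27 of 29 genes in control flies (18 to 23 under median-ratio and upper-quartile scalings) and above 0 for 27 of 29 in paraquat flies (23 to 25). Dashed lines are the medians of all genes with at least 1 RPKM.

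The same comparison in kdm5 mutant flies asked whether synthetase transcripts respond to paraquat when Kdm5 is reduced. The median difference was -0.06 and no synthetase gene passed 1.5-fold in either direction, where 2.11% of 8288 genes were higher and 2.32% lower. Below 0 were 22 of 29, against 62.6% of all genes. Under median-ratio and upper-quartile scalings 17 to 20 of 29 were below 0, against 48.6% to 53.8% of all genes. The median of all genes was -0.05 as deposited. Counting intervals lay below 1 for 11 of 29 and above 1 for AspRS, with 33.1% and 15.8% of all genes doing so.

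GlnRS and TrpRS-m, the mitochondrial tryptophan enzyme, were furthest below 0 in kdm5 mutant flies. GlnRS was 1.19-fold lower (1.13 to 1.25) on paraquat, with the RPKM values given above. TrpRS-m was at 9.84 RPKM in kdm5 mutant paraquat flies and 11.7 RPKM in kdm5 mutant control flies, against 11.7 and 18.7 RPKM in wild type paraquat and wild type control flies, and was 1.19-fold lower (1.08 to 1.31) on paraquat in the mutant. CysRS and MetRS followed, at -0.17 and -0.14. Furthest above 0 were AspRS, which was 1.12-fold higher (1.08 to 1.16), ProRS-m at 0.11, TrpRS at 0.08 and TyrRS at 0.03. The counting intervals of the last 3 held 1. TrpRS, the cytosolic tryptophan enzyme, was at 29.2 RPKM in kdm5 mutant paraquat and 27.5 RPKM in kdm5 mutant control flies, against 29.2 and 38.6 RPKM in wild type paraquat and wild type control flies.

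In control flies, kdm5 mutant was set against wild type to ask how the family stands without added stress. The median difference was -0.27, against -0.19 for all genes and -0.28 for genes of at least 5 RPKM, so the family lay close to the rest of the transcriptome. Below 0 were 27 of 29 genes, against 62.3% of all genes. Under median-ratio and upper-quartile scalings 18 to 23 of 29 were below 0, against 50.4% to 56.9% of all genes. Among genes of at least 5 RPKM 69.0% were below 0. AspRS and CysRS-m were above 0. Past 1.5-fold 4 genes were lower and 0 higher, where 21.1% of 8364 genes were lower and 14.7% higher. Counting intervals lay below 1 for 24 of 29 and above 1 for 1 of 29, against 54.9% and 31.6% of all genes.

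The 4 genes past the rule were mitochondrial and class I. Under each of the median-ratio and upper-quartile scalings only ValRS-m stayed past it, at -0.72 to -0.64, and with a pseudocount of 5 none did. ValRS-m had a difference of -0.81 and was 2.01-fold lower (1.74 to 2.33) in kdm5 mutant control flies. TrpRS-m was 1.60-fold lower (1.47 to 1.74), LeuRS-m, the mitochondrial leucine enzyme, 1.57-fold lower (1.44 to 1.72), and MetRS-m 1.95-fold lower (1.68 to 2.27). LeuRS-m was at 8.01, 8.67 and 7.66 RPKM in kdm5 mutant paraquat, kdm5 mutant control and wild type paraquat flies, against 13.7 RPKM in wild type control flies. As with ValRS-m, the wild type control was the library that differed from the other 3.

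At the other end, AspRS was 1.21-fold higher (1.16 to 1.26) in kdm5 mutant control flies. The counting intervals of CysRS-m, ProRS-m, GlnRS and TyrRS held 1. The cytosolic forms had a median of -0.21 and the mitochondrial forms one of -0.36. Here too the wild type control library enters, and 9 of 9 muscle genes were higher in kdm5 mutant control flies, with the sums given above. Their part in the result was not tested.

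In paraquat flies the order of the genotypes was the other way for most genes. The median difference of kdm5 mutant against wild type was 0.24, against 0.08 for all genes. Above 0 were 27 of 29, against 59.5% of all genes. Under median-ratio and upper-quartile scalings 23 to 25 of 29 were above 0, where 44.3% to 50.3% of all genes were below it. One gene, ProRS-m, passed 1.5-fold and was higher (none did with a pseudocount of 5), where 7.2% of 8487 genes were higher and 7.26% lower. Counting intervals lay above 1 for 20 of 29, against 45.1% of all genes, and below 1 for 2 of 29, against 29.0% of all genes.

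ProRS-m, the mitochondrial proline enzyme (chromosome 3L, 2650161 to 2651850, minus strand), was at 6.08 RPKM in kdm5 mutant paraquat flies and 5.58 in kdm5 mutant control flies, against 3.40 in wild type paraquat flies and 5.63 in wild type control flies. The wild type paraquat library was the low one, with 166 reads, and the gene was 1.79-fold higher (1.48 to 2.18) in kdm5 mutant paraquat flies than in wild type paraquat flies. ProRS-m overlaps CG1246 on the opposite strand. IleRS-m followed at 1.59-fold higher (1.39 to 1.83), AspRS at 1.44-fold (1.38 to 1.495) and GlnRS at 1.41-fold (1.33 to 1.49). TrpRS-m and MetRS-m were the genes below 0, at 1.19-fold lower (1.08 to 1.31) and 1.27-fold lower (1.08 to 1.498). TrpRS at 0.00 and SerRS at 0.03 had intervals that held 1.

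The paraquat difference in kdm5 mutant flies minus that in wild type flies was above 0 for all 29 genes as deposited (24 to 29 under median-ratio and upper-quartile scalings), and 62.2% of all 8611 genes were above 0. Its median was 0.50, against 0.25 for all genes and 0.39 for genes of at least 5 RPKM. Past 1.5-fold and higher were 9 of 29, a share near the 30.1% of all genes; 17.6% of all genes and 0 of 29 were lower. ValRS-m was highest at 0.90, from -0.04 in the mutant and -0.94 in wild type. IleRS-m followed at 0.88, MetRS at 0.78 and AspRS-m at 0.76, and the lowest were AsnRS and SerRS at 0.21, CysRS-m at 0.23 and AspRS at 0.24. This difference was not tested, since each group is 1 library, and with those scalings its median was between 0.22 and 0.37, against -0.01 to 0.13 for all genes.

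**Figure D3:**
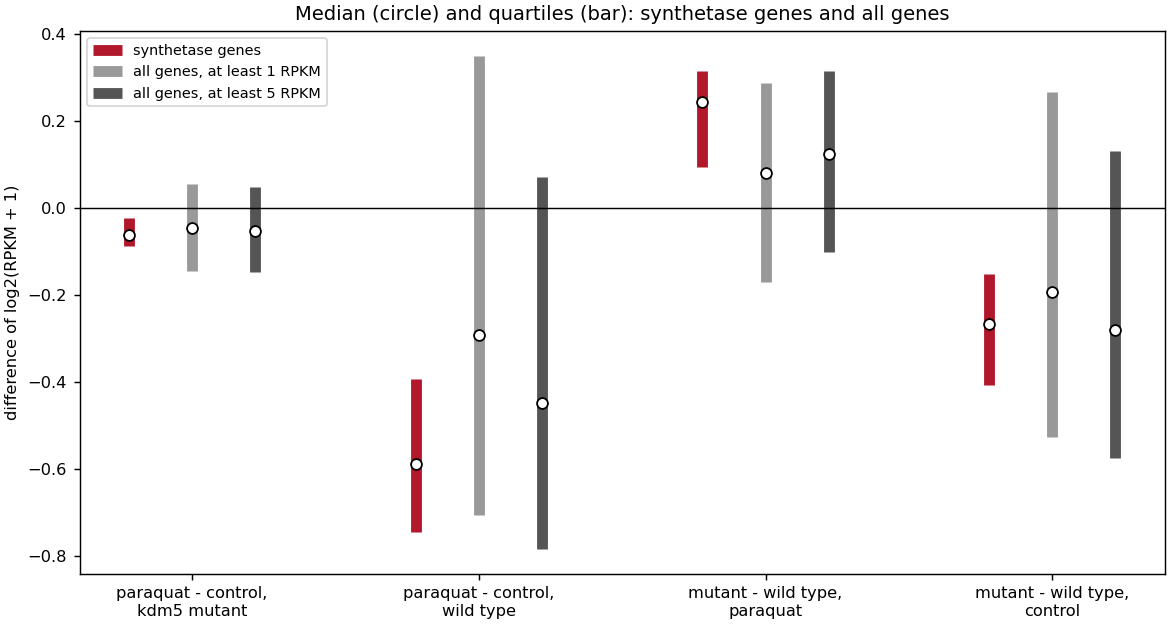
Median (circle) and quartiles (bar) of the difference of log2(RPKM + 1) in the 4 comparisons, for the 29 synthetase genes and for all genes with at least 1 or at least 5 RPKM. In wild type the synthetase median of -0.59 lies below those of all genes at -0.29 and -0.45, and in kdm5 mutant flies all 3 medians lie near 0.

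Genes that work beside the synthetases were taken from lists chosen with earlier results of these data known, so their counts are descriptions. Of all genes, 32.4% were lower and 15.4% higher past 1.5-fold on paraquat in wild type. In the mutant 2.32% were lower and 2.11% higher. Among genes of at least 5 RPKM 39.4% were lower in wild type, with a median of -0.45. The subunits of cytosolic PheRS, which charge phenylalanine tRNA as a pair, were lower on paraquat in wild type, like the 16 cytosolic forms. alpha-PheRS was at 31.0, 36.7, 25.2 and 42.1 RPKM and beta-PheRS at 23.3, 26.3, 19.6 and 30.7 RPKM in kdm5 mutant paraquat, kdm5 mutant control, wild type paraquat and wild type control flies. Both were lower past 1.5-fold on paraquat in wild type, at -0.72 and -0.62, against a cytosolic median of -0.51. In the mutant their differences were -0.24 and -0.17, below the cytosolic median of -0.07 and lower quartile of -0.09. Neither passed 1.5-fold there.

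Of the synthetase cofactors and paralogs, 2 of 6 were lower past 1.5-fold on paraquat in wild type, with a median of -0.55, and 0 of 6 in the mutant, with a median of -0.11. The share of all genes lower past it in wild type was 32.4%, or 39.4% among genes of at least 5 RPKM. The scaffold genes AIMP1 and AIMP2 were at -0.73 and -0.69 in wild type, and the scaffold gene AIMP3 at -0.17. Slimp, a paralog of the mitochondrial serine enzyme, was at -0.53, and GatB, a subunit of the mitochondrial enzyme that converts misloaded glutamate on glutamine tRNA, at -0.57. Genes of tRNA processing and modification had 4 of 8 lower and a median of -0.52, with the methyltransferase gene Nsun2 at -0.81 and the Elongator gene Elp3 at -0.76. RtcB, the tRNA ligase, was at -0.66 and Tgt, which swaps a guanine for queuine, at -0.67. In the mutant none of these 8 passed 1.5-fold.

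Translation factors, which act at the ribosome, were also measured. Of the mitochondrial factors 3 of 7 were lower on paraquat in wild type, with a median of -0.46, and the release factor gene mRF1 was furthest at -0.89. Among all genes of at least 5 RPKM 39.4% were lower, with a median of -0.45. Of the cytosolic elongation and termination factors 1 of 7 was lower and 1 higher, with a median of -0.45. The higher one was eEF1alpha2, an elongation factor isoform, at 46.4 RPKM in kdm5 mutant paraquat, 52.0 in kdm5 mutant control, 76.8 in wild type paraquat and 33.0 in wild type control flies. In the mutant 0 of 7 passed 1.5-fold in either list.

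Amino acid supply genes were mixed. Past 1.5-fold on paraquat in wild type, 32.4% of all genes were lower and 15.4% higher. Of the transporters 4 of 6 were lower on paraquat in wild type, with a median of -0.66 and slif, an arginine transporter gene, at 8.39, 9.97, 7.90 and 17.8 RPKM in kdm5 mutant paraquat, kdm5 mutant control, wild type paraquat and wild type control flies. Of the amino acid synthesis enzymes 2 of 7 were higher and 0 lower on paraquat in wild type, with a median of 0.03. In the mutant all 7 were below 0 on paraquat, with a median of -0.35 against -0.05 for all genes. There 1 was lower past 1.5-fold, where 2.32% of all genes were. In control flies 5 of these 7 were higher in the kdm5 mutant than in wild type and 0 lower, with a median of 1.05. Of all genes 14.7% were higher and 21.1% lower there. Shmt, which converts serine to glycine, was at 66.2 RPKM in kdm5 mutant paraquat and 113 in kdm5 mutant control flies, against 29.4 in wild type paraquat and 37.9 in wild type control flies. In paraquat flies 3 of the 7 were higher in the kdm5 mutant and 0 lower, with a median of 0.57, where 7.2% of all genes were higher.

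In many animals the transcription factor ATF4, encoded by crc in flies, raises synthetase and amino acid synthesis genes after the kinases Gcn2 and PEK act on eIF2alpha. crc was at 67.6 RPKM in kdm5 mutant paraquat flies and 69.7 in kdm5 mutant control flies, and at 87.8 in wild type paraquat flies and 60.2 in wild type control flies, so its difference of 0.54 in wild type was short of 1.5-fold. Gcn2 was at 9.34, 10.9, 7.07 and 11.9 RPKM and PEK at 27.8, 23.1, 21.2 and 37.7 RPKM in the same order, and both were lower past 1.5-fold on paraquat in wild type. Thor, the fly 4E-BP gene that restrains translation initiation, was at 299 RPKM in kdm5 mutant paraquat and 98.5 in kdm5 mutant control flies, against 325 in wild type paraquat and 201 in wild type control flies. It was higher on paraquat in both genotypes, by 1.59 in the mutant and 0.69 in wild type on the log2 scale. Over the 8 regulators measured, 2 were higher and 2 lower past 1.5-fold in wild type, where 15.4% and 32.4% of all genes were. In the mutant 1 was higher, where 2.11% of all genes were. These are RNA levels, so they do not show how active the kinases or ATF4 were.

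**Figure D4:**
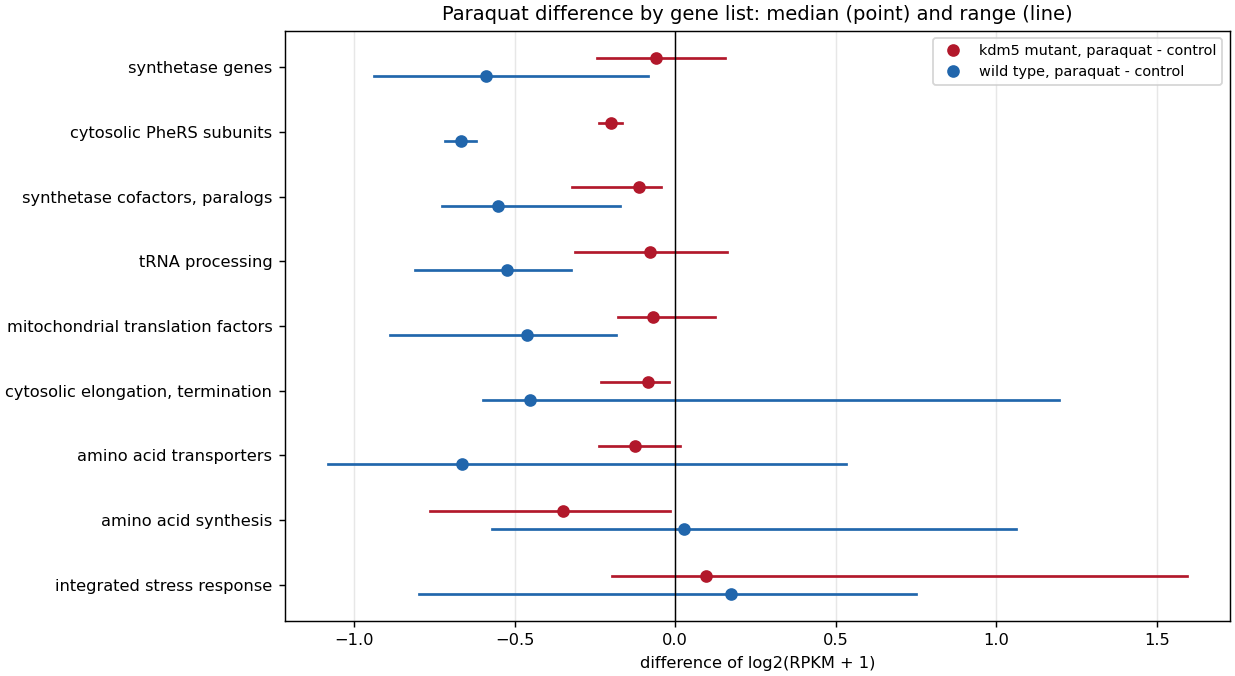
Paraquat minus control difference of log2(RPKM + 1) for the synthetase genes and 8 related gene lists in kdm5 mutant and wild type flies; points are medians over genes and lines run from the lowest to the highest gene. In wild type 6 of the 8 lists have medians between -0.67 and -0.45, and amino acid synthesis and the integrated stress response lie near 0.03 and 0.17. The wild type median of all genes was -0.29, or -0.45 among genes with at least 5 RPKM.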

How the data were processed

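Per the file headers, each deposited table lists by FlyBase gene ID the count of unique reads, the gene length, the percent of it covered and the RPKM. The deposited RPKM equals the count divided by the deposited length and the library total, with a largest relative gap of 5.13e-07. The submitters' processing notes name Cufflinks and dm3. The sources used here do not give the aligner, the annotation release or how strand was handled. Gene IDs missing from a table were taken as 0 reads.

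The 4 comparisons were computed on the deposited values in Python 3.11.15 (pandas 2.3.3, scipy 1.17.1), with a pseudocount of 1 and a minimum of 1 RPKM in a library compared. The calculation was tested on simulated data. Symbols matched 11667 of 12073 IDs. The members and lists were chosen with earlier results of these data known. Values are given for the 4 highest and 4 lowest members of each comparison, the highest and lowest of each compartment, and up to 4 members of each list by size of difference, beside crc, Gcn2, PEK, Kdm5 and the PheRS subunits. Slimp, GatB and AIMP3 and the other genes outside this were chosen after their values were seen. The alternatives were other scalings, pseudocounts, minimums and baselines, values not divided by length, and narrower or wider sets of members. No sequences are shown.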

Additional observations from a re-analysis of the deposited data

Results flagged for a closer look

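AspRS, the cytosolic aspartate enzyme, moved in opposite directions with paraquat in the 2 genotypes, by 0.16 in kdm5 mutant flies and -0.09 in wild type flies on the log2(RPKM + 1) scale. Each value is 1 library against 1 library, both counting intervals leave out 1, and the difference was not tested. Both values are above 0 with median-ratio and upper-quartile scalings. They were 0.19 in kdm5 mutant flies and 0.09 in wild type flies with median-ratio scaling. In the same order they were 0.19 and 0.23 with that scaling on genes of at least 1 RPKM, and 0.21 and 0.19 with upper-quartile scaling. The directions stayed opposite, at 0.20 and -0.05, without the mitochondrial large ribosomal RNA in the total. The opposite directions and the size of the difference thus depend on the scaling. AspRS overlaps 3 other annotated genes.

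Between genotypes, 15 of the 29 synthetase genes were lower in kdm5 mutant than in wild type control flies and higher in kdm5 mutant than in wild type paraquat flies, with both counting intervals leaving out 1. The opposite pattern was found for 0 of 29, but its share of all genes is not given here, so this 0 has no background. Of all 8611 genes 25.4% showed the first pattern. The count became 12 with median-ratio scaling, 6 with that scaling on genes of at least 1 RPKM and 8 with upper-quartile scaling, against 19.8%, 13.5% and 14.8% of all genes in the same order. The difference between conditions was not tested.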

How the results depend on the processing

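Each group is 1 library, so no replicate could be left out, and folds carry counting error only. No paired analysis was possible because each group has 1 library. In wild type, the median paraquat difference of -0.59 became -0.41 with median-ratio scaling, -0.27 with median-ratio scaling on genes of at least 1 RPKM (chosen after the data were seen), -0.31 with upper-quartile scaling, -0.44 with a pseudocount of 5 and -0.30 with the kdm5 mutant control as the baseline. The 15 genes lower past 1.5-fold became 7, 3, 3, 6 and 1 in the same order, and 8 of the 14 genes with no overlapping gene. For the other scalings, pseudocounts and baselines in this section, the share of all genes past 1.5-fold is not given.

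In control flies, the median of -0.27 became -0.16, -0.063 and -0.13 with the 3 scalings in the same order, and the 4 lower genes became 1 with each of them, 2 without the mitochondrial large ribosomal RNA in the total and 0 with a pseudocount of 5. With the wild type paraquat library as baseline it reversed to 0.30, with 0 genes lower and 1 higher, and LeuRS-m and ValRS-m reversed to 0.16 and 0.13; TrpRS-m reversed to 0.0023 in the wild type paraquat comparison with the kdm5 mutant control as baseline. These baselines differ from the other library in both genotype and treatment. With the kdm5 mutant control as baseline, 26 of 29 genes were below 0 in wild type paraquat flies, against 62.4% of all genes.

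In paraquat flies the 1 higher gene became 2 with a pseudocount of 0.1 or with reads not divided by length, and 0 with a pseudocount of 5 or without overlapping genes. The median difference of responses of 0.50 became 0.37, 0.22 and 0.28 with the 3 scalings. The cause of these shifts was not tested.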
